A study of Drosophila melanogaster with 2 samples.

Results

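The 33 aminoacyl-tRNA synthetase genes of Drosophila melanogaster were examined for occupancy by Hr83, a nuclear receptor of the NR2E family with no established ligand. They are all protein-coding genes of the Ensembl annotation of BDGP6 whose symbol consists of 1 or 2 amino acid codes followed by RS, with or without the ending -m, and they make up 33 of 13945 protein-coding genes. Of these, 15 carry the ending -m and are called mitochondrial here, and the 18 without it are called cytosolic. Genes that serve both compartments would fall in the cytosolic set. Both subunits of the cytosolic phenylalanine enzyme, alpha-PheRS and beta-PheRS, have symbols of another form and are treated with the related genes further on.

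Aminoacyl-tRNA synthetases join each amino acid to its tRNA, the charging step that every round of protein synthesis depends on. Animal cells hold separate nuclear genes for the cytosolic and the mitochondrial enzyme of many amino acids, while some genes serve both compartments. Growing larvae translate at a high rate, and the synthetases are counted among the housekeeping genes.

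The series profiled chromatin by ChIP-seq in 1 group, the strain Hr83-GFP, in biological replicates numbered 3 and 4, which makes 2 in all. Whole wandering larvae at the end of larval life, males and females together, carried an insertion that expresses Hr83 fused at its C-terminus to GFP, and an antibody against GFP was used for the precipitation after sonication, although 1 field of the labels names Hr83 as the antibody. The labels give no promoter for the fusion and list the larvae's age as unknown, and both replicates carry the same transgene. No untagged or other control group was analysed here, so what is particular to Hr83-GFP was not tested, and in whole larvae strong occupancy in few cells cannot be told apart from weak occupancy in many.

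The deposited files are lists of peaks with a signal per peak. They give no read counts, and depth is therefore unknown. Each relaxed list, from replicate 3, from replicate 4 and from both pooled, held 30000 regions, down to a signal of 9.61, 8.69 and 17.9. The thresholded list, derived by an irreproducible discovery rate (IDR) comparison, held 4797 peaks with signals of 63.3 to 1278 and a median of 93.8. Of these, 4690 overlapped a region in the relaxed lists of both replicates, so a thresholded peak was not always listed in each replicate alone. At the synthetase genes, each thresholded peak had the same signal and rank as in the pooled list. A gene was counted as having a peak where a summit lay within 1 kb of any of its annotated transcription start sites (TSSs). The signal is the authors' own score per peak and is compared within a list only.

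Synthetase genes carried thresholded peaks as often as protein-coding genes in general. A peak was found at 9 of the 33, 27.3%, against 27.3% of all 13945 protein-coding genes. The 9 genes are AsnRS, GluProRS, AspRS, IleRS, TrpRS and ValRS of the cytosolic set and LeuRS-m, ArgRS-m and PheRS-m of the mitochondrial set. For scale, the same count gave 68 of 86 cytosolic ribosomal protein genes, 79.1%, and 35 of 73 mitochondrial ribosomal protein genes, 47.9%; the differences between these sets were not tested.

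The peaks at synthetase genes were of middling strength within the list. Over the 9 genes the strongest peak per gene had a median signal of 92.4, with a range of 81.2 to 155, against a median of 102.5 over the 3805 protein-coding genes with a peak. None of the 10 synthetase peaks was among the 500 strongest of the 4797 thresholded peaks, and with so few peaks nothing is read from this. AsnRS ranked 726, and the weakest, a second peak at AspRS, ranked 4064.

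**Figure D1:**
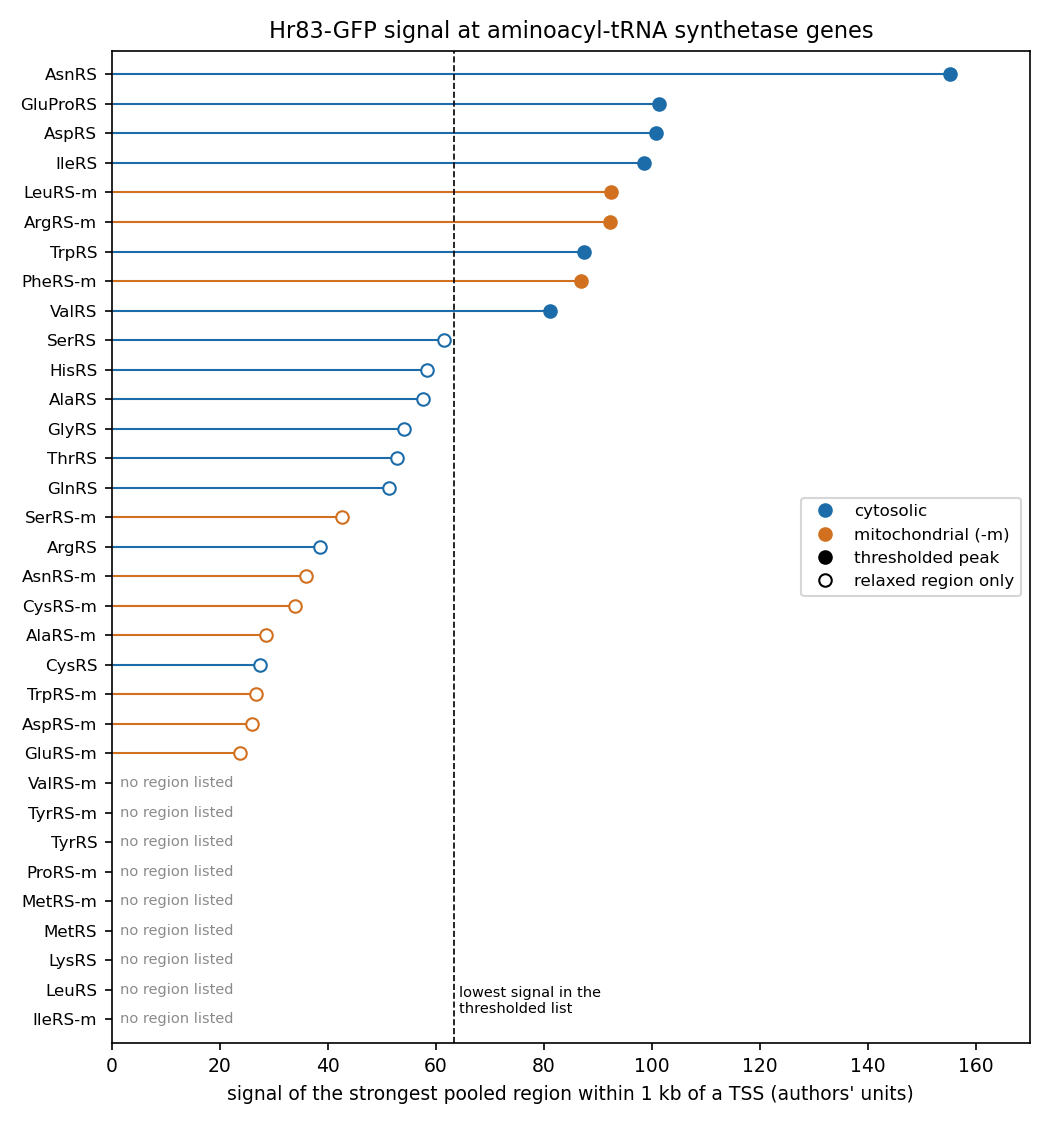
Signal of the strongest region of the pooled relaxed list within 1 kb of a TSS, for each synthetase gene in order of signal. Filled points are thresholded peaks, from 81.2 at ValRS to 155 at AsnRS, open points are regions below the threshold, and 9 genes have no region listed.

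The sequences directly upstream of the TSS are shown for the 6 synthetase genes with a thresholded peak for which sequence is given here, because all of their summits fall within these bases. Each is read 5′ to 3′ toward the gene from the reference genome of the files' build, dm6, and ends at the base before the TSS; it runs for up to 250 bases and stops where an annotated exon begins. Capitals mark the DRE element TATCGATA, the GAGA element GAGAG, the E-boxes CAGCTG and CACGTG and the NR2E hexamer AAGTCA, each searched on both strands.
AsnRS, chr2L:19131955-19132204, minus strand: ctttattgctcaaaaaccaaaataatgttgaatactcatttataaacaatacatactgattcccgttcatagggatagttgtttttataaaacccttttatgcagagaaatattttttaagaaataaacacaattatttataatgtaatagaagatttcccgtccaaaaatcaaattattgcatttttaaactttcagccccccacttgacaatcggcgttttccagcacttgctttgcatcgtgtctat
GluProRS, chr3R:23958392-23958641, minus strand: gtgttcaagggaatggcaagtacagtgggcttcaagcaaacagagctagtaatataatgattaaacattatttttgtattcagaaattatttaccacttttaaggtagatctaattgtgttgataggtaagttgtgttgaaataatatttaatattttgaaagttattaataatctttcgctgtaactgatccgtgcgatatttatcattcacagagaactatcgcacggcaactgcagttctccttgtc
IleRS, chr3L:22288415-22288664, plus strand: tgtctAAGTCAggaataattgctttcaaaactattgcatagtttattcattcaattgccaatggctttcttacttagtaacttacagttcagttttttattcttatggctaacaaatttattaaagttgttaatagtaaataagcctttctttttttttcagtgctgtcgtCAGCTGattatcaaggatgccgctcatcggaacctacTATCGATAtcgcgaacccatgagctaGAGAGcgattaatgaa
LeuRS-m, chr3L:4825688-4825852, plus strand: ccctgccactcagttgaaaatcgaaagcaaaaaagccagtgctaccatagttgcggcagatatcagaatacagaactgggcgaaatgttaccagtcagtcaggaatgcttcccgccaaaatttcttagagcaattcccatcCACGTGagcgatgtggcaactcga
ArgRS-m, chr3R:7886795-7887044, plus strand: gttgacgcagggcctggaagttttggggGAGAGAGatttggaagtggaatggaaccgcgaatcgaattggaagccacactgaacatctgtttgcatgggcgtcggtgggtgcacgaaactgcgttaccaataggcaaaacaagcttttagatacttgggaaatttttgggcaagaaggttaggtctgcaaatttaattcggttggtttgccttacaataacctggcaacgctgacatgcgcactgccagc
TrpRS, chr3R:9266905-9267018, minus strand: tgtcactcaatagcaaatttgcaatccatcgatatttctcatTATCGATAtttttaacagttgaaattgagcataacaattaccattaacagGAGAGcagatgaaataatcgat

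In these sequences the summit lies 49 bases upstream of the TSS for AsnRS, 38 for GluProRS, 101 for IleRS, 68 for LeuRS-m, 130 for ArgRS-m and 57 for TrpRS. The DRE occupies bases 42 to 35 before the TSS of IleRS and bases 72 to 65 before that of TrpRS. LeuRS-m and TrpRS have shorter runs, 165 and 114 bases, since the exon of a gene on the opposite strand begins there. GC content was 30.4% at AsnRS, 30.7% at TrpRS, 32.8% at GluProRS, 34.0% at IleRS, 47.3% at LeuRS-m and 48.4% at ArgRS-m.

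AsnRS, which charges tRNA with asparagine, had the strongest synthetase peak. It spanned 19131875 to 19132130 on 2L, with a signal of 155 and its summit 49 bp upstream of the TSS. The overlapping region had a signal of 73.4 at rank 635 in replicate 3 and of 94.5 at rank 747 in replicate 4. Its place in the list was therefore similar in both replicates, and their summits were 23 bp apart.

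GluProRS encodes a fused enzyme for both glutamate and proline. Its peak on 3R (23958301 to 23958556, signal 101, rank 2056) had its summit 38 bp upstream of the more upstream of the gene's 2 TSSs. Replicate 3 gave a signal of 32.9 at rank 3554 and replicate 4 one of 50.3 at rank 3184. The ranks were close, but the replicate 3 summit lay 196 bp upstream and the replicate 4 summit 43 bp upstream, 153 bp apart.

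AspRS, the aspartate enzyme, has 3 annotated TSSs and was the only synthetase gene with more than 1 thresholded peak. The stronger peak (2R, 12880132 to 12880387, signal 100.7, rank 2084) had its summit 24 bp upstream of a TSS inside the annotated gene span. It had a signal of 55.3 at rank 1254 in replicate 3 and of 46.5 at rank 3679 in replicate 4. The other peak (12879694 to 12879949, signal 70.3, rank 4064) lay 462 bp upstream of the same TSS, with ranks of 3389 and 3535 in replicates 3 and 4. At the most upstream TSS of the gene only regions below the threshold were listed, the strongest with a pooled signal of 51.6.

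IleRS, the isoleucine enzyme, had a peak on 3L (22288436 to 22288691, signal 98.6, rank 2174) centred 101 bp upstream of its TSS. Its signal was 51.2 at rank 1483 in replicate 3 and 57.6 at rank 2441 in replicate 4. TrpRS, the tryptophan enzyme, had one on 3R (9266833 to 9267088, signal 87.5, rank 2736), with a signal of 36.2 at rank 3004 in replicate 3 and of 54.2 at rank 2769 in replicate 4. Both genes were found at similar places in the lists of both replicates, with summits 13 bp and 43 bp apart.

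ValRS, the valine enzyme, had the weakest of the strongest peaks per gene (2R, 13198242 to 13198497, signal 81.2, rank 3143), and its summit lay 480 bp upstream of the nearest of its TSSs. The overlapping region had a signal of 33.1 at rank 3522 in replicate 3 and of 59.6 at rank 2275 in replicate 4. That summit is nearer to another gene, as described below for the neighbours.

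Among the mitochondrial enzymes, LeuRS-m, which charges leucine, had a peak on 3L (4825657 to 4825912, signal 92.4, rank 2473) centred 68 bp upstream of the TSS. The replicates placed it differently, with a signal of 48.1 at rank 1688 in replicate 3 and of 33.9 at rank 5960 in replicate 4. It was the only one of the 10 synthetase peaks whose rank in a replicate lay beyond the 4797 of the thresholded list, although its replicate summits, 3 bp apart, were the closest.

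ArgRS-m, the mitochondrial arginine enzyme, had a peak on 3R (7886787 to 7887042, signal 92.3, rank 2476) with its summit 130 bp upstream. Its signal was 59.2 at rank 1067 in replicate 3, centred 43 bp upstream. In replicate 4 a pair of regions overlapped the peak, the stronger with a signal of 51.2 at rank 3090 and centred 307 bp upstream. The replicate summits were 264 bp apart, the widest gap among the synthetase peaks.

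PheRS-m, the mitochondrial phenylalanine enzyme, had a peak on 2R (13968053 to 13968308, signal 86.8, rank 2771) centred 127 bp upstream. Its ranks of 2837 in replicate 3 and 2826 in replicate 4 were nearly equal, at signals of 37.4 and 53.7. Over the 10 peaks, 6 ranked higher in replicate 3 and 4 in replicate 4. The median gap between replicate summits was 30.0 bp at the synthetase peaks, against 25.0 bp over the 4690 thresholded peaks found in both replicates, and 8 of the 10 were within 50 bp, against 73.9% of the 4690.

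**Figure D2:**
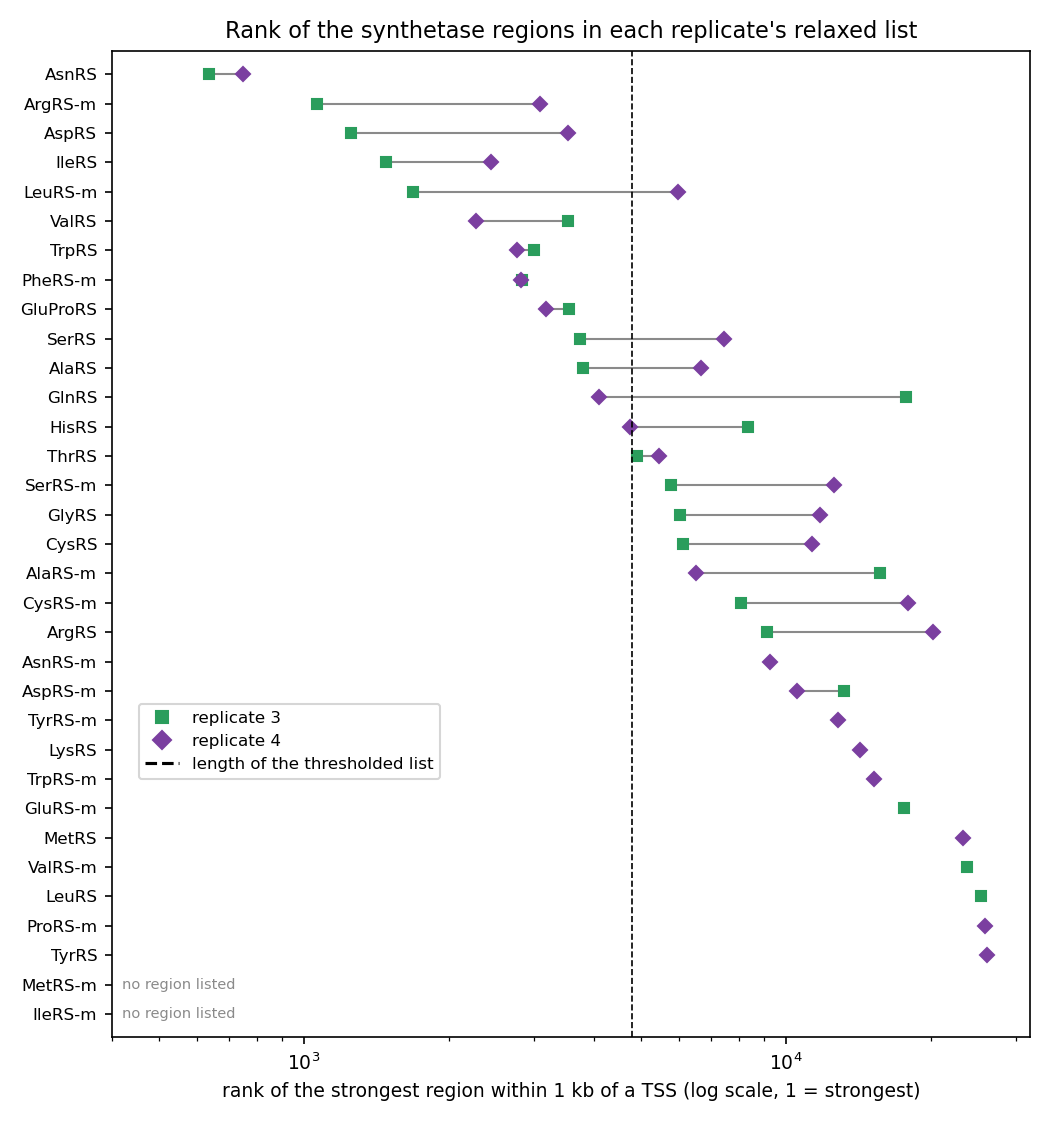
Rank of the strongest region within 1 kb of a TSS in the relaxed lists of replicate 3 (squares) and replicate 4 (diamonds). Each row is a synthetase gene, ranks are on a log scale, and the replicates' regions at a gene need not overlap. The dashed line marks rank 4797; AsnRS lies far left in both replicates, GlnRS is split between rank 17685 in replicate 3 and rank 4101 in replicate 4, and IleRS-m and MetRS-m have no region in either.

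Summits lay on the upstream side of the TSS. All 10 synthetase peaks had their summit upstream of the nearest TSS of the gene, against 73.2% of the 4825 pairs of a protein-coding gene and a thresholded peak within 1 kb. At the stronger AspRS peak the replicate 4 summit lay 15 bp downstream. The ValRS summit and the weaker AspRS summit were nearer to a neighbour's TSS. The median distance was 84.5 bp, against 99.0 bp over all pairs, and 8 of the 10 lay within 150 bp, against 57.7% of all pairs. Peaks of 1 gene, and genes that share a peak, are not independent.

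Most synthetase genes start head to head with another gene. A TSS of another protein-coding gene, on the opposite strand and transcribed away from it, lay within 500 bp for 21 of 33 synthetase genes, 63.6%, against 27.4% of all protein-coding genes. Among head-to-head genes, 7 of 21 synthetase genes had a thresholded peak, 33.3%, against 45.1% of all 3815 such genes. Among the others it was 2 of 12 (PheRS-m and ValRS), 16.7%, against 20.6% of all. ValRS starts head to head with Kdm4B just beyond the 500 bp limit. Its summit, between the 2 starts, lay 480 bp from its own TSS and 33 bp from that of Kdm4B. The differences were not tested, and with so few synthetase genes per class nothing is read from them.

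A single peak near such a promoter is counted for both genes. For 9 of the 10 synthetase peaks another coding TSS lay within 1 kb of the summit, the exception being PheRS-m. By the thresholded summit, the synthetase TSS was the nearest coding TSS for 8 peaks and a neighbour's for 2. The same shares over all thresholded peaks are not given here, so neither count is read as particular to synthetase genes. The ValRS summit lay 33 bp from the TSS of Kdm4B, which encodes a histone demethylase, and the weaker AspRS summit lay 24 bp from a TSS of Nmda1, the TSS of AspRS being 462 bp away.

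At other pairs the summit lay between the starts. The TrpRS summit was 57 bp from its own TSS and 58 bp from that of Vps16A, a vacuolar protein sorting gene, so the peak cannot be given to 1 of them by distance. The same holds for the stronger AspRS summit, 24 bp from a TSS of AspRS and 30 bp from one of Nmda1. At LeuRS-m it was 68 bp from the TSS of the synthetase and 98 bp from that of Dhc64C, the heavy chain of cytoplasmic dynein. The ArgRS-m summit was 130 bp from its own TSS and 182 bp from that of CG17816, the 2 TSSs being 312 bp apart. The replicates differed in which gene was nearer. In replicate 3 the summit lay 43 bp upstream of ArgRS-m. In replicate 4 the stronger summit lay 307 bp upstream, beside the TSS of CG17816, and a weaker one 105 bp upstream. Clearly nearer to the synthetase were the summits at AsnRS and IleRS. The AsnRS summit was 320 bp from the TSS of the dynactin gene DCTN6-p27. The IleRS summit was 369 bp from that of Hem, a subunit of the WAVE complex. The thresholded GluProRS summit was 38 bp from its own TSS and 222 bp from that of the clathrin adaptor gene AP-1sigma. These TSSs were 260 bp apart, and here too the replicates differed in which gene was nearer. In replicate 4 the summit lay 43 bp upstream of GluProRS. In replicate 3 it lay 196 bp upstream, nearer to the TSS of AP-1sigma.

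**Figure D3:**
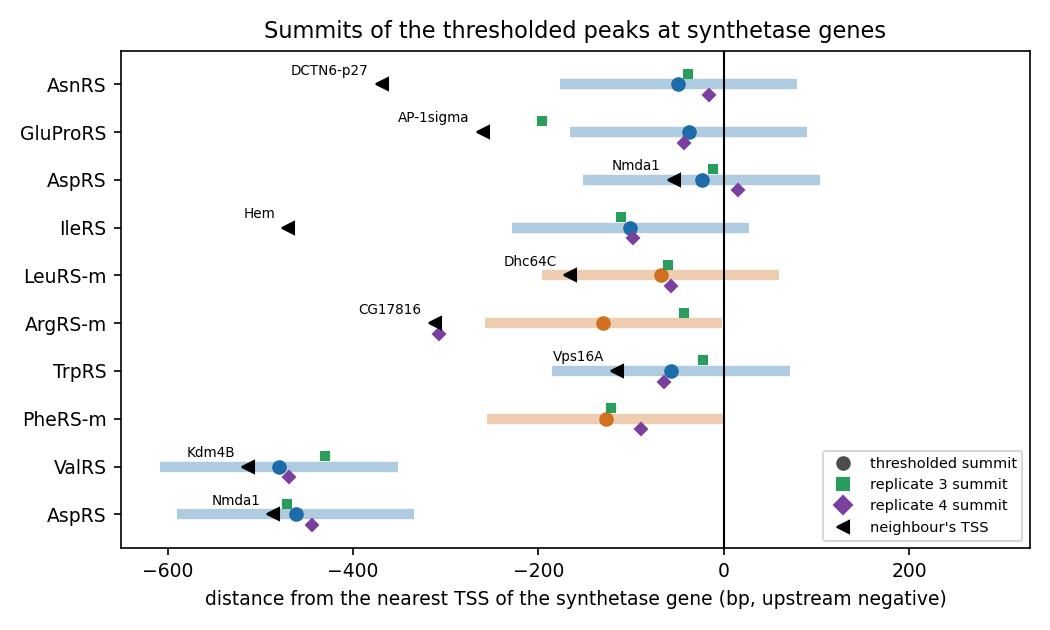
Position of each thresholded peak at a synthetase gene relative to the nearest TSS of that gene (0, upstream negative), in order of signal. Bars show the peak's extent (blue cytosolic, orange mitochondrial), points the thresholded summit, squares and diamonds the strongest overlapping summits of replicates 3 and 4, and triangles the TSS of a neighbouring coding gene; the lower 2 peaks lie beside the TSSs of Kdm4B and Nmda1.

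Of the 24 synthetase genes without a thresholded peak, 15 had a region in the pooled relaxed list. In all, 24 of 33 synthetase genes had a pooled region, 72.7%, against 62.3% of all protein-coding genes. Directly below the threshold, which ends at a signal of 63.3, came SerRS with 61.5, HisRS with 58.4, AlaRS with 57.6, GlyRS with 54.0, ThrRS with 52.9 and GlnRS with 51.4, all without the ending -m. The other 9 were SerRS-m (42.6), ArgRS (38.5), AsnRS-m (35.9), CysRS-m (33.9), AlaRS-m (28.6), CysRS (27.5), TrpRS-m (26.6), AspRS-m (26.0) and GluRS-m (23.65).

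Several of these differed between the replicates. GlnRS, the glutamine enzyme, had a signal of 43.4 at rank 4101 in replicate 4, and of 13.0 at rank 17685 in replicate 3. HisRS, the histidine enzyme, ranked 4735 in replicate 4 and 8349 in replicate 3. The order was the other way at SerRS, which ranked 3736 in replicate 3 and 7436 in replicate 4. It was so too at AlaRS, with ranks of 3783 in replicate 3 and 6670 in replicate 4. At some genes the strongest regions of the replicates did not overlap. At AlaRS-m they were centred 280 bp downstream of the TSS in replicate 3 and 92 bp upstream in replicate 4. At SerRS-m they lay 141 bp upstream and 412 bp downstream, and at CysRS-m 160 bp upstream and 464 bp downstream.

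The strongest pooled region lay within 150 bp of the TSS for 10 of the 15 genes. It lay over 500 bp away for 3 of them. At ArgRS it was centred 588 bp upstream, beyond the TSS of the head-to-head gene CG8578, which is 331 bp away. At TrpRS-m it lay 777 bp downstream of the TSS. At GluRS-m it lay 913 bp upstream, within the span of TyrRS (16417349 to 16419302 on 3L), which stands upstream of GluRS-m on the same strand.

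No pooled region was listed at the remaining 9 genes, LeuRS, LysRS, MetRS, TyrRS, IleRS-m, MetRS-m, ProRS-m, TyrRS-m and ValRS-m. Of these, 5 had a region in replicate 4 alone, namely TyrRS-m (signal 18.6), LysRS (17.0), MetRS (11.1), ProRS-m (10.05) and TyrRS (9.98). A further 2 had one in replicate 3 alone, ValRS-m (11.0) and LeuRS (10.6). IleRS-m and MetRS-m had no region in any list. A relaxed list stops at 30000 regions, so a gene without one had a signal below the list's lowest value or no region called.

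By replicate, a relaxed region lay at 24 of 33 synthetase genes in replicate 3, 72.7%, against 61.0% of all protein-coding genes, and at 28 in replicate 4, 84.8%, against 62.3% of all. Both replicates listed one at 21, or 63.6%, against 51.6% of all. The regions of the 2 lists need not overlap for a gene to count here.

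By compartment, a thresholded peak was found at 6 of 18 cytosolic genes, 33.3%, and at 3 of 15 mitochondrial genes, 20.0%, against 27.3% of all protein-coding genes. Both shares lie near that of all genes. A pooled region was found at 14 of 18 cytosolic genes, 77.8%, and 10 of 15 mitochondrial ones, 66.7%, against 62.3% of all, with median signals of 59.9 (range 27.5 to 155) and 34.9 (23.65 to 92.4). In both replicates' lists a region was found at 14 of 18 cytosolic genes, 77.8%, and 7 of 15 mitochondrial genes, 46.7%, against 51.6% of all. The ranges of signal overlap, and the difference between the compartments was not tested. The sets were drawn by symbol alone, and the cytosolic set can hold genes that serve both compartments.

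Among synthetase genes that the symbol rule pairs by amino acid, 12 pairs had 1 cytosolic and 1 mitochondrial gene, and 0 of them had a thresholded peak at both. Since 27.3% of all protein-coding genes had a peak, nothing is read from the 0. Of the pairs, 5 had a peak at the cytosolic gene only (Asn, Asp, Ile, Trp and Val), 2 at the mitochondrial gene only (Arg and Leu) and 5 at neither (Ala, Cys, Met, Ser and Tyr). At isoleucine the pooled signal was 98.6 at IleRS and no region was listed at IleRS-m. At leucine it was 92.4 at LeuRS-m, and none was listed at LeuRS. At arginine it was 92.3 at ArgRS-m and 38.5 at ArgRS. Phenylalanine is not among the pairs because its cytosolic subunits have symbols of another form, and there a thresholded peak lay in both compartments, with signals of 104 at beta-PheRS and 86.8 at PheRS-m.

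The 2 catalytic classes of synthetases, which have unrelated folds, were both represented. Thresholded peaks lay at 5 of 18 genes for class I enzymes, 27.8%, and at 3 of 14 for class II enzymes, 21.4%, against 27.3% of all protein-coding genes, and at GluProRS, which holds a domain of each. Of the 8 cytosolic enzymes that form the multisynthetase complex in mammals, 3 had a thresholded peak (GluProRS, IleRS and AspRS), 37.5%, as did 3 of the 10 other cytosolic genes, 30.0%, again near the 27.3% of all genes. LeuRS, LysRS and MetRS, also of the complex, had no pooled region.

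Genes that act beside the synthetases were examined from a list of 20, all of which matched a gene of the annotation. Of these, 9 had a thresholded peak, 45.0%, against 27.3% of all protein-coding genes, and 16 of the 20 had a pooled region, against 62.3% of all. Thor, the translation inhibitor 4E-BP, had a signal of 238 at rank 200, with ranks of 400 in replicate 3 and 121 in replicate 4. GatA, a subunit of the amidotransferase that completes glutamine charging in mitochondria, had 236 at rank 205, with ranks of 219 in replicate 3 and 277 in replicate 4. Both exceeded every synthetase gene.

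Sps1, a selenophosphate synthetase gene, came next with a signal of 227 at rank 231, while its relative Sps2 had 79.4, with its summit 983 bp upstream. The translation elongation factor genes eEF1alpha1, whose product delivers charged tRNA to the ribosome, and eEF1gamma, a subunit of its exchange factor, had signals of 215 and 198. AIMP1, a scaffold of the multisynthetase complex, had 129, crc, the fly ATF4, 127, and beta-PheRS 104, with its summit 58 bp upstream of the TSS. The partner subunit gene alpha-PheRS had no region in any list, and neither had AIMP3 and GatB. AIMP2, GatC, Slimp, CG1750, Gcn2, eEF1alpha2 and eEF1beta had regions below the threshold, the strongest at eEF1beta with 60.3. At eEF1delta a region was listed in the replicates only.

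Of the 10 short motifs searched in the promoters, the E-box CAGCTG differed most in its share from all promoters. It is the core of Motif 5, an element of Drosophila core promoters, and reads the same on both strands. It was found in 16 of 33 synthetase promoters, 48.5%, against 17.7% of all protein-coding promoters, each from 250 bases before to 50 after the most upstream TSS. The sites numbered 20, of which 17 were centred within 100 bp of the TSS, or 85.0%, against 66.8% of the 2784 sites in all promoters. A match is a description of the sequence and not evidence of a binding site.

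The site nearest to the TSS is shown for the 13 synthetase genes for which sequence is given here, in capitals between 10 bases on either side, since this motif's share differed most from that of all promoters. Each is read 5′ to 3′ on the strand of the gene, from dm6.
AlaRS-m, chr3L: gccatgtgatCAGCTGttcgggcctg
ArgRS, chrX: gtgacatcacCAGCTGttatcgttat
ArgRS-m, chr3R: gatgtcaaaaCAGCTGatgtgcagcg
GluProRS, chr3R: tagacgttagCAGCTGgccgtactcg
GluRS-m, chr3L: tagtttcgatCAGCTGtttggggtaa
HisRS, chrX: gcagaaaaagCAGCTGaaagctggaa
IleRS, chr3L: gtgctgtcgtCAGCTGattatcaagg
LeuRS-m, chr3L: tgcagagaaaCAGCTGttcgattgta
MetRS-m, chr3R: actggtggcaCAGCTGttcaatgtta
SerRS, chr2L: ctattttgaaCAGCTGctaaaagcaa
TrpRS, chr3R: tgcagcgcaaCAGCTGattttccaga
TrpRS-m, chr3L: tcactgttcaCAGCTGtcgtaccggc
TyrRS, chr3L: gctgtagaaaCAGCTGatcaccacgc

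The site is centred 2 bp upstream of the TSS at MetRS-m, 24 at TrpRS-m, 30 at TyrRS, 44 at ArgRS, 76 at IleRS, 126 at SerRS and 129 at TrpRS. It lies downstream at GluRS-m (10 bp), LeuRS-m (13), ArgRS-m (24), AlaRS-m (31), GluProRS (31) and HisRS (34). CysRS, MetRS and TyrRS-m also hold a site.

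The element was found with and without a peak. It was present in the promoters of 5 of 9 synthetase genes with a thresholded peak, 55.6%, and of 11 of 24 without one, 45.8%, against 21.7% and 16.2% of all genes with and without a peak. AspRS counts among the 9 through peaks at an internal TSS. Its searched promoter is that of the most upstream TSS, where the element was not found. Cytosolic and mitochondrial genes held the element at 9 of 18 and 7 of 15. By promoter type, 11 of 21 head-to-head synthetase genes held it, 52.4%, against 25.1% of all head-to-head genes, and 5 of 12 of the others, 41.7%, against 14.9%. Within 100 bp of the summit it was present at 5 of the 10 synthetase peaks, against 15.8% of all 4797 peaks. The 5 are at AspRS, GluProRS, IleRS, LeuRS-m and TrpRS. Unlike the 10, the 4797 were not limited to peaks within 1 kb of a coding TSS, so these shares are not like for like.

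The DRE element TATCGATA, known from housekeeping promoters, was found in 5 synthetase promoters, 15.2%, against 9.37% of all. These were AlaRS, ArgRS, IleRS, PheRS-m and TrpRS, and the last 3 carried a thresholded peak. All 5 sites were centred within 100 bp of the TSS. The core of Motif 1, GTCACACT, was also found in 5, AsnRS-m, AspRS-m, GlnRS, LeuRS and ProRS-m, 15.2% against 6.62%, and none of these had a thresholded peak. The GAGA element GAGAG was found in 6, 18.2% against 29.8%, and 4 of them had a peak (ArgRS-m, AsnRS, IleRS and TrpRS). Of all protein-coding genes, 27.3% had a peak. The share among all genes that hold each motif is not given here. With so few genes per motif, nothing is read from which of them had a peak.

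Hexamers known from nuclear receptor sites were present in some synthetase promoters and lay at 0 of the 10 summits. Both were also rare over all peaks, so nothing is read from the 0. The NR2E hexamer AAGTCA was found in 5 synthetase promoters, 15.2%, against 16.2% of all, and within 100 bp of 0 of the 10 summits, against 8.67% of all peaks. The hexamer AGGTCA was found in 3, 9.09% against 5.89%, all among the 24 synthetase genes without a thresholded peak. It was also found at 0 of the 10 summits, against 3.02% of all peaks. The amino acid response element TGATGNAA, which ATF4 binds in mammals, was found at CysRS alone, 3.03% against 4.10%. The E-box CACGTG was found in 2 (GlnRS and LeuRS-m), 6.06% against 4.24%, the TATA box TATAAA in 18, 54.5% against 45.9%, and the initiator TCAGTT in 9, 27.3% against 26.2%. With 33 promoters, 1 gene more or less moves a share by 3.03 percentage points.

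**Figure D4:**
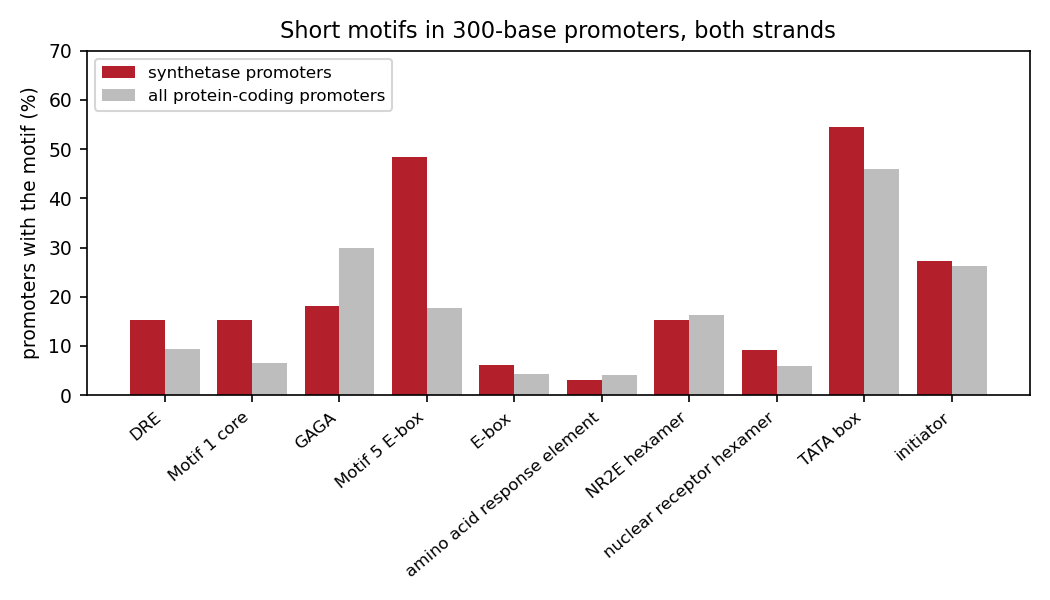
Share of synthetase promoters (red, 33) and of all protein-coding promoters (grey, 13945) with each motif on either strand in the 300 bases around the most upstream TSS. The bars differ most for the Motif 5 E-box CAGCTG, at 48.5% of synthetase promoters and 17.7% of all.

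**Figure D5:**
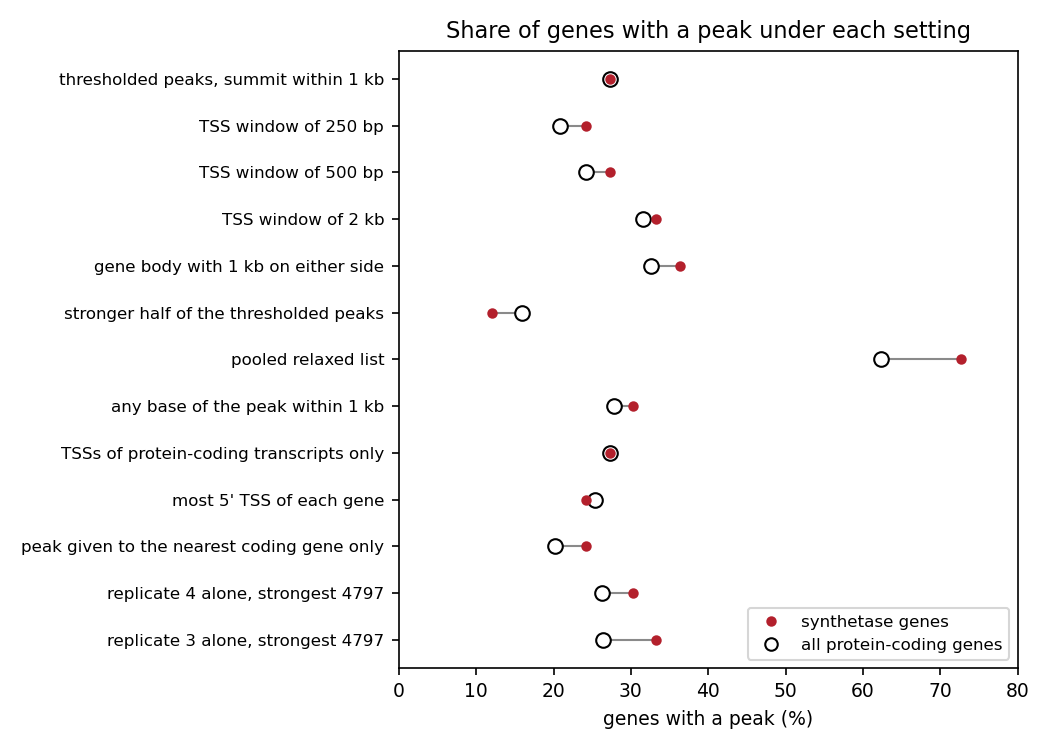
Share of synthetase genes (filled) and of all protein-coding genes (open) with a peak under each definition of a peak at a gene. The shares coincide at 27.3% for thresholded summits within 1 kb and are furthest apart in the pooled relaxed list, at 72.7% against 62.3%; the synthetase share is the lower one for the stronger peaks and for the most 5′ TSS.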

How the data were processed

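ChIP-seq peak lists of both replicates of Hr83-GFP larvae on dm6 were used. Per the notes deposited with the samples, the authors called relaxed lists against a control alignment, per replicate and on both pooled, and compared them by IDR to give the thresholded list. Aligner, caller and depth were not given in the sources used here. Signal (column 7) is the deposited value per peak, and how it was normalized is not stated, so it was compared within a list only. Lists on dm3 were not used.

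Peaks were joined to TSSs of the Ensembl release 115 annotation, for protein-coding genes on 2L, 2R, 3L, 3R, 4 and X. Of 30593 annotated start codons 99.83% read ATG in the reference genome, and 0 regions passed a chromosome end. Coordinates are 1-based. Counting was checked against planted summits. Replicate regions had to overlap a peak by at least 1 bp. No test was run: the series has 1 group, and members are compared with all protein-coding genes as a description. Python 3.11.15 was used. The members, gene lists and motifs were chosen with earlier results of these data known. All members are named; other genes are named from the list of related genes or where their TSS lay within 1 kb of a peak or region at a member. Alternatives varied the window, threshold, overlap, TSS set, assignment and replicate.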

Additional observations from a re-analysis of the deposited data

How the results depend on the processing

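A thresholded peak was counted at 8 synthetase genes in a 250 bp window, against 20.9% of all genes, at 9 in a 500 bp window (24.25%) and at 11 in a 2 kb window, with AlaRS and GlyRS added (31.6%). Over the gene body with 1 kb on either side the counts were 12 (7 cytosolic and 5 mitochondrial, 32.6% of all). With the 2398 strongest peaks a peak was counted at 4, of which 0 were mitochondrial (15.9%), so the share of synthetase genes, 12.1%, lay below that of all genes. The pooled relaxed list gave 24 (14 cytosolic and 10 mitochondrial, 62.3%). With the most 5' TSS of each gene it was 8, without AspRS (25.4%), and with each peak given to the nearest coding gene 8, without ValRS (20.2%). Any base of the peak within 1 kb gave 10 (27.8%), and TSSs of coding transcripts alone gave 9. From 1 replicate's 4797 strongest regions the counts were 10 without replicate 3, where LeuRS-m was lost and GlnRS and HisRS were added, and 11 without replicate 4, where AlaRS and SerRS were added (26.3% and 26.4% of all). In 300 bases centred on the TSS the amino acid response element was found in 4 promoters, not 1, against 4.31% of all, and CAGCTG in 16, against 18.1%. Read counts were not among the values used, so how depth limits the relaxed regions is unknown.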
